A study of Homo sapiens with 2 samples.

Results

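The proteasome genes of HCT116 cells, a human colorectal carcinoma cell line, were examined under glucose deprivation. Members were chosen by name, as all rows of the deposited table whose symbol is PSM followed by a letter from A to G and a number, and 46 of the 17987 genes in the table met this rule. All 46 had a value, as did 17054 genes in the whole table. The testis subunit PSMA8 and the thymus subunit PSMB11, which the rule would also take, have no row in the table used here. RNA was taken from 1 library of wild-type HCT116 cells in normal medium and from 1 library of wild-type HCT116 cells kept for 24 h in glucose-free medium, and the column names of the table call both of them HCT116 NC, the study's name for control cells. Since each condition has 1 library, replicates, a test across samples and an error for any value are lacking, and each difference describes these 2 libraries. A cell line is a single cancer-derived population, and other cell lines were not analysed here.

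Values are the authors' log2 fold changes of glucose deprivation over normal medium, so that a negative value is a lower level in the deprived cells. This direction was read from the order of the conditions in the column name and from EZH2, which the study describes as decreased and which has a negative value. The level of a gene in each library and the sequencing depth are unknown from these values. Genes below -0.75 on the log2 scale were called lower and genes above a fold of 1.2 higher, the sizes of the study's methods, in both cases with a false discovery rate (FDR) of at most 0.001 from the authors' Poisson test, which compares the reads of 2 libraries and not the conditions. The median over all genes was -0.12, and values relative to that median are given beside the main results. Of 11 markers of colon epithelium 9 had a value, as did 4 of 5 markers of fibroblast and endothelium and 2 of 4 of immune cells. Having a value therefore does not tell cell types apart, and without levels the cell type could not be checked.

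The proteasome is the large protease that degrades ubiquitin-tagged proteins in the cytosol and nucleus. Its barrel-shaped core particle, the 20S proteasome, is built of alpha rings that form the gate and beta rings that carry the proteolytic sites. The regulatory particle, 19S, caps the core: its ATPases unfold the substrate and feed it inwards, and its non-ATPase subunits recognise ubiquitin, remove it and hold the particle together. Other caps of the core are the PSME activators, and dedicated chaperones assemble the core and the base of the cap. In many cells the genes of the core and cap are transcribed in a coordinated way, and the transcription factor NFE2L1 raises them when proteasome activity falls short.

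Proteasome genes were shifted downwards as a family. Of the 46 genes, 44 (95.7%) had a negative log2 fold change, against 55.6% of all genes, and 12 (26.1%) were called lower, against 13.1% of all genes. None was called higher, against 15.9% of all genes. By size alone 12 of the 46 members stood below -0.75, as did 3811 of the 17054 genes, so these shares lay closer together than the called shares. Above a fold of 1.2 by size alone stood 1 member, PSMD9, and 4938 of the 17054 genes. The FDR limit was met by 36 of the 46 members and by 7651 of the 17054 genes, so the called shares also reflect this limit. The median was -0.56, a 1.48-fold lower level, and it was -0.45 relative to the median of all genes. The middle 50% of the members lay between -0.76 and -0.30, a width of 0.46 on the log2 scale, whereas the middle 50% of all genes covered 1.02. The width of all genes takes in 9403 genes that missed the FDR limit, against 10 of the 46 members. Whether the members spread less than genes with like read numbers was not tested. The members formed a narrow band of moderate decreases, 15 of them between -0.75 and -0.50, and the count of lower genes depends on where in this band the threshold falls. Of the members within 0.05 of -0.75, 4 lay below it (PSMG3 at -0.79, PSMC2 and PSMA4 at -0.77 and PSME3 at -0.77) and 5 above it (PSMA3 at -0.74, PSME2 and PSMD14 at -0.73, PSMC3 at -0.72 and PSMA2 at -0.70). With a fold of 1.2 asked of decreases too, and the same FDR, 34 members (73.9%) were lower, compared with 25.6% of the whole table. After all values were centred on the median of all genes, 6 of the 12 stayed below -0.75 and 40 members were below 0.

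**Figure D1:**
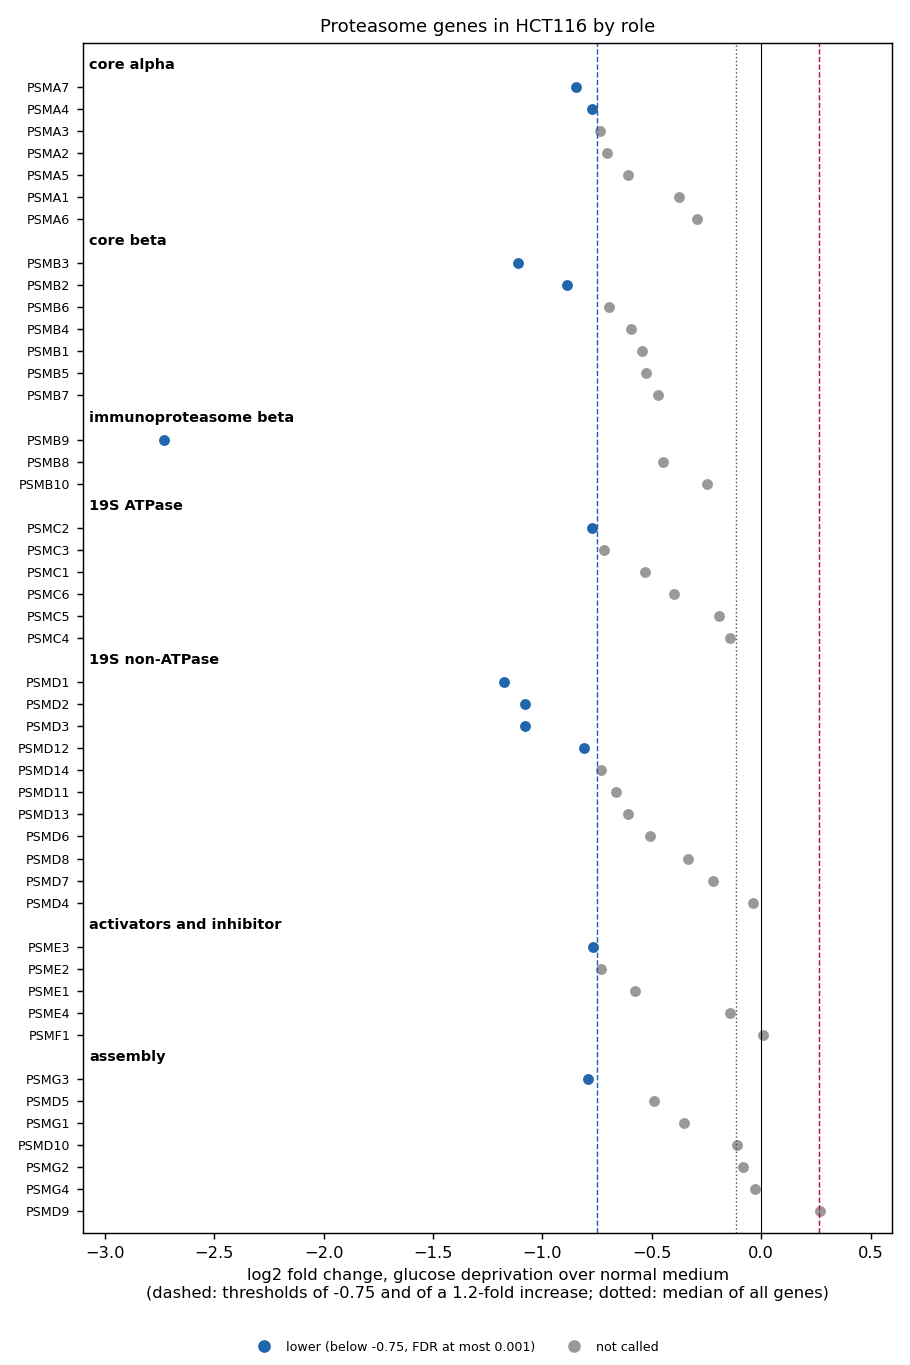
Log2 fold change of each of the 46 proteasome genes (horizontal axis), grouped by role; each point is 1 gene from 1 library per condition, blue where called lower. Every point of the core particle lies left of 0, PSMB9 stands apart at -2.73, and the assembly factors have the median nearest to 0.

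**Figure D2:**
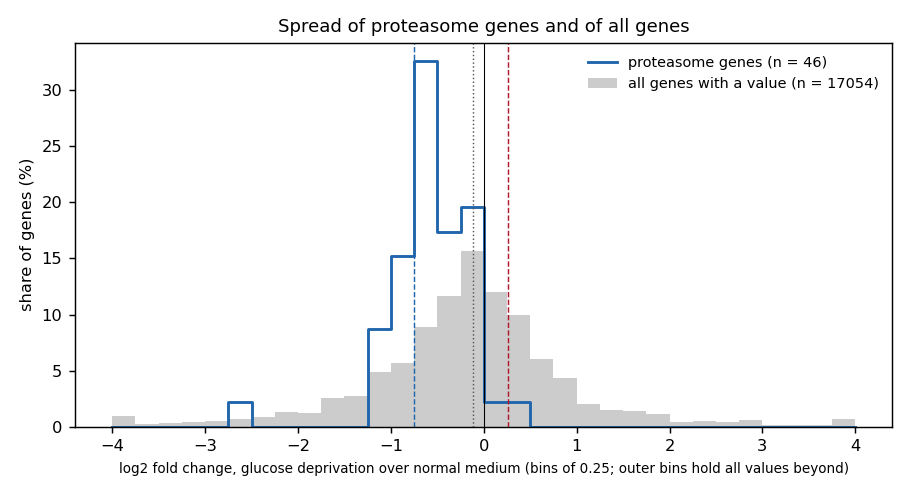
Share of genes in each bin of 0.25 on the log2 scale, for 46 proteasome genes (blue line) and 17054 genes (grey bars). The proteasome genes form a narrow band centred at -0.56, with 2 genes above 0.

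The alpha subunits, which form the outer rings and the gate of the core particle, were all negative. Their 7 values ran from -0.85 to -0.29 with a median of -0.70, or -0.59 relative to all genes. PSMA7 was lower at -0.85 (1.80-fold, FDR 5.97e-90) and PSMA4 at -0.77 (1.71-fold, FDR 2.78e-87). PSMA3 (-0.74), PSMA2 (-0.70) and PSMA5 (-0.61) followed without reaching -0.75. PSMA1 (-0.37) and PSMA6 (-0.29) had the smallest decreases of the ring. All 7 were lower at a fold of 1.2 with the FDR limit.

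The beta subunits of the standard core were also negative throughout. Their 7 values ran from -1.11 to -0.47 with a median of -0.59, and all 7 were lower at a fold of 1.2. PSMB3 was lower at -1.11 (2.16-fold, FDR 1.72e-115) and PSMB2 at -0.89 (1.85-fold, FDR 6.1e-132). Both belong to the 4 beta subunits without a proteolytic site, of which PSMB4 stood at -0.59 and PSMB1 at -0.55. The 3 proteolytic subunits had a narrower range. PSMB6, with caspase-like activity, stood at -0.70, PSMB5, with chymotrypsin-like activity and the main target of bortezomib, at -0.53, and PSMB7, with trypsin-like activity, at -0.47. None of these 3 was called lower at -0.75. Over both kinds of ring, 14 of 14 genes of the standard core were lower at a fold of 1.2, 4 of them at -0.75.

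The immunoproteasome replaces the 3 proteolytic subunits by PSMB9, PSMB8 and PSMB10, which interferon induces and which favour peptides for class I antigen presentation. These genes were far apart. PSMB9 had the largest decrease of all 46 members, at -2.73 (6.63-fold lower, FDR 7.08e-13), at the 2.47th percentile of all genes. The Poisson test of reads gave PSMD1 an FDR of 1.13e-187 at the smaller fold of 2.26, so PSMB9 probably rests on fewer reads. The level of PSMB9 is unknown, and the size of its decrease is uncertain. PSMB8 stood at -0.45 with an FDR of 0.69, and PSMB10 at -0.25 with an FDR of 0.18, so neither was called. The fold of PSMB8 is the ratio of 11 to 15 within a relative tolerance of 1e-07. It is the one member whose fold is a ratio of whole numbers of at most 20, as are 20.4% of all folds, and such a fold moves in coarse steps. Beside the subunit whose place it takes, PSMB9 was 2.03 lower on the log2 scale than PSMB6, whereas PSMB8 lay 0.08 above PSMB5 and PSMB10 lay 0.22 above PSMB7. PSMB8 overlaps an antisense gene and the counting of strands is not given in the sources used here, so reads of the pair cannot be told apart. Leaving out PSMB9 moved the median of the family from -0.56 to -0.55.

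The ATPases of the regulatory particle, which unfold substrates, had smaller decreases. Their 6 values ran from -0.77 to -0.14 with a median of -0.46, and 1 of the 6 was called lower. PSMC2 stood at -0.77 (1.71-fold lower, FDR 1.39e-44) and PSMC3 at -0.72. PSMC1 (-0.53) and PSMC6 (-0.40) lay between. PSMC5 stood at -0.19 and PSMC4 at -0.14, and the latter had an FDR of 0.0035. The 6 proteins form a single ring, and within this ring PSMC2 and PSMC4 differed by 0.63 on the log2 scale. RefSeq names 13 pseudogenes after PSMC1, more than after any other member, and how reads were divided between them is not given.

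The non-ATPase subunits of the regulatory particle, 11 of the 46 members, held 3 of the 5 members below -1 and 4 of the 12 called lower. Their 11 values ran from -1.18 to -0.04 with a median of -0.66. Of the 11, 4 were called lower, against 13.1% of all genes. PSMD1, a scaffold of the base, was lower at -1.18 (2.26-fold, FDR 1.13e-187). PSMD2, the scaffold that docks ubiquitin receptors and deubiquitinases, was lower at -1.08 (2.11-fold, FDR 1.4e-305). PSMD3, a structural subunit of the lid, was lower at -1.08 (2.11-fold, FDR 1.41e-166), and PSMD12, another one, at -0.81 (1.75-fold, FDR 1.15e-90). PSMD14, the deubiquitinase that removes ubiquitin chains from substrates, stood at -0.73 and its partner subunit PSMD7 at -0.22. The lid subunits PSMD11 (-0.66), PSMD13 (-0.61), PSMD6 (-0.51) and PSMD8 (-0.33) were in between. PSMD4, a ubiquitin receptor, stood at -0.04 with an FDR of 0.59, the value nearest to 0 among the 31 constitutive subunits. With PSMD4, PSMC4 was the other constitutive subunit that missed the FDR limit.

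Among the alternative caps, the PSME activators differed from each other. PSME1 and PSME2, the interferon-inducible partners of the PA28 cap, stood at -0.58 and -0.73. PSME3, which forms the nuclear PA28 cap, was lower at -0.77 (1.70-fold, FDR 3.03e-98). PSME4, which encodes the PA200 cap, stood at -0.14 with an FDR of 0.0031. PSMF1, an inhibitor of the core particle in vitro, stood at 0.01 with an FDR of 0.34. RefSeq names 6 pseudogenes after PSME2.

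The assembly factors were the group nearest to the middle of the table. Their 7 values ran from -0.79 to 0.27 with a median of -0.11, which turned to 0.0028 after centring on the median of all genes. PSMG1 and PSMG2 act as a dimer in building the alpha ring, and they stood at -0.35 and -0.08. PSMG3 and PSMG4 form the other dimer. PSMG3 was lower at -0.79 (1.73-fold, FDR 9.76e-12), whereas PSMG4 stood at -0.03 with an FDR of 0.54, a difference of 0.76 between the partners. The chaperones of the base also differed, with PSMD5 at -0.49, PSMD10 (gankyrin) at -0.11 and PSMD9 at 0.27. PSMD9 had the highest value of the family but missed the FDR limit at 0.0034. After centring, PSMD10, PSMG2, PSMG4 and the cap subunit PSMD4 came to lie above 0.

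Set side by side, the group medians were -0.70 for alpha subunits, -0.66 for 19S non-ATPases, -0.59 for beta subunits, -0.58 for activators and inhibitor, -0.46 for 19S ATPases, -0.45 for immunoproteasome subunits and -0.11 for assembly factors. The immunoproteasome median is the value of PSMB8, which was not called (FDR 0.69), between PSMB9 at -2.73 and PSMB10 at -0.25. Of the 31 constitutive subunits of core and cap 27 were lower at a fold of 1.2, with a median of -0.61, and of the 15 other members 7 were, with a median of -0.35. The first 4 medians lie closer to each other than the genes within any of these groups, whose values spread over 0.55 to 1.14. These differences have no test, since there is 1 library per condition and genes are not replicates.

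Genes that work with the proteasome were taken from lists written by function. Their calls stand beside 13.1% lower and 15.9% higher over all genes, and since a decrease must be larger than an increase to be called, the number lower at a fold of 1.2 (25.6% of all genes) is given as well. Of 13 other subunits, assembly and associated factors, 1 was lower, or 5 at a fold of 1.2, and 3 were higher, with a median of -0.25. POMP, the chaperone that completes the core particle, was lower at -0.98 (1.97-fold, FDR 1.24e-73). SEM1, the smallest lid subunit, stood at -0.71, and the proteasomal deubiquitinases UCHL5 and USP14 stood at -0.59 and -0.53. The ubiquitin receptor ADRM1 stood at -0.36, PAAF1 at -0.30, UBE3C at -0.25 and FAM192A at -0.11. AKIRIN2 (0.17) and ZFAND5 (0.20) were positive and not called. The higher ones were ZFAND2A at 1.87, which encodes a stress-induced proteasome-binding protein, the thioredoxin-like TXNL1 at 0.52 and the adaptor ECPAS at 0.41.

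The median of the list of transcriptional control had the opposite sign to that of the subunits, with 3 of its 12 genes below 0. Of 12 genes 7 were higher, against 15.9% of all genes, and 2 were lower, with a median of 0.45, or 0.57 relative to all genes. NFE2L1 was higher at 1.27 (2.42-fold), and its relative NFE2L2 at 0.64 (1.56-fold). The small MAF proteins, with which these factors pair on DNA, were higher as well, MAFF at 2.19, MAFG at 0.87 and MAFK at 0.63. SYVN1, the ligase that marks newly made NFE2L1 for degradation, was higher at 1.46, and NGLY1, the glycanase that NFE2L1 needs for its activity, at 0.28. DDI2, the protease that cleaves NFE2L1 into its active form, stood at -0.38 with an FDR of 0.051. The lower genes were NFYB at -0.91, a subunit of the CCAAT-binding factor, and NFE2L3 at -0.78, a relative of NFE2L1 and NFE2L2. The other CCAAT-binding subunits stood at 0.25 (NFYC) and 0.18 (NFYA). Protein levels and processing of these factors were not measured here.

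Upstream of the proteasome, the 10 genes of substrate delivery had a median of -0.22, with 8 of them below 0. At a fold of 1.2 in both directions 4 of these were lower and 1 higher, and none passed -0.75. Of 5 genes of ubiquitin and its activating enzymes, 2 were lower and 2 higher at a fold of 1.2, again with none below -0.75. Of these, SQSTM1 (1.76) and UBA1 (-0.67) were picked out with their values in view. SQSTM1 links ubiquitin-tagged cargo to autophagy, and UBA1 is the main activating enzyme. In class I antigen processing, which uses peptides of the immunoproteasome, 2 of 11 genes were lower, against 13.1% of all genes, or 5 at a fold of 1.2. Another 3 were higher, against 15.9% of all genes, and the median was -0.31. The lower ones were NLRC5 at -1.62 (3.08-fold, FDR 4.33e-10), an activator of class I genes, and TAPBP at -0.94, which helps to load peptides. TAPBP had an FDR of 3.94e-67 in the Poisson test at a smaller fold of 1.92, so NLRC5 probably rests on fewer reads. The size of the NLRC5 decrease is uncertain. The higher ones included ERAP1 (1.30) and IRF1 (0.88), and these genes too were picked out with their values in view. Of the peptide transporter genes next to PSMB9 and PSMB8, TAP1 stood at 0.14 (FDR 0.049), and TAP2 at -0.45 (FDR 2.48e-17) was lower at a fold of 1.2 but not at -0.75.

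**Figure D3:**
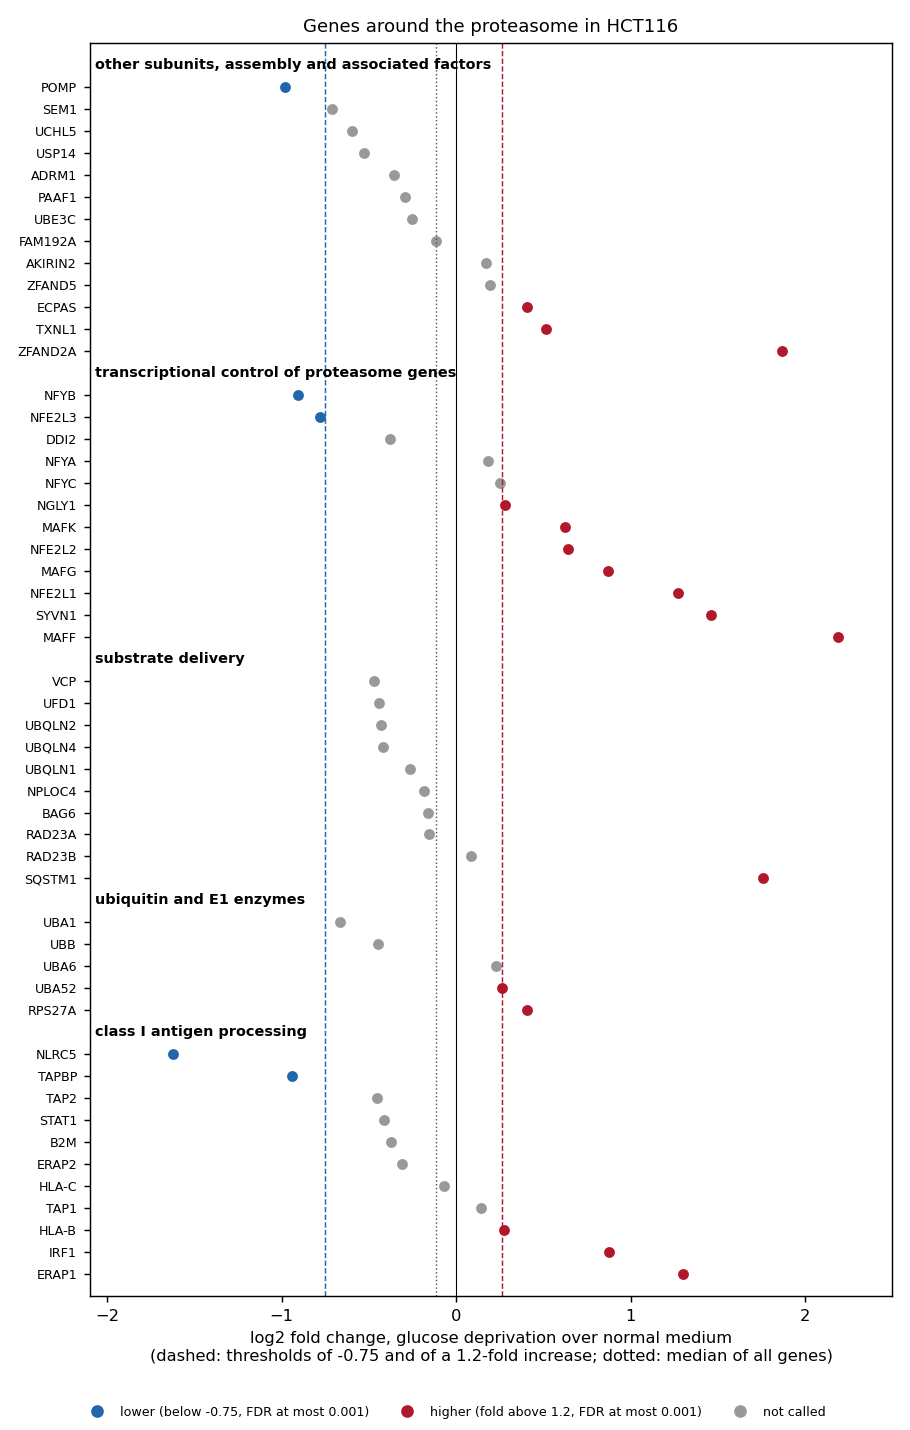
Log2 fold change (horizontal axis) of the genes that act around the proteasome, by list; each point is 1 gene from 1 library per condition, blue where lower, red where higher and grey where not called. POMP lies among the decreases at -0.98, while NFE2L1 and the small MAF genes lie right of 0.

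Promoter sequences were searched because the members moved together and because NFE2L1 and the CCAAT-binding factor act through known DNA elements. Windows of 300 bases, from 250 before to 50 after the start of a gene, were taken from RefSeq (GRCh38.p14), and 40 of the 46 members had one. The core of the antioxidant response element, TGACNNNGC on either strand, was found in 15 of the 40 (37.5%), against 16.1% of all genes with a window and 18.7% of those that also had a value. The CCAAT box, CCAAT on either strand, was found in 19 of the 40 (47.5%), against 39.7% of all genes and 42.4% of those with a value. The core of the amino acid response element, TGATGNAA, was found in 1 member, PSMF1, against 4.46% of all genes and 3.22% of those with a value. The elements of cell cycle genes, TTTGAA or TTTAAA, were found in 8 of the 40 members, against 27.9% of all genes and 22.9% of those with a value. A match gives the presence of the letters and does not show that a factor was bound. The median log2 fold change was -0.58 for the 15 members with the antioxidant core and -0.53 for the 25 without it. It was -0.72 for the 19 members with a CCAAT box and -0.45 for the 21 without it. The members with and without either element overlapped widely.

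The matches of the antioxidant core in the members called lower are shown because they belong to the largest decreases. Each is read on the strand of the motif with 10 bases on either side where the window allows, and capitals mark the motif.
PSMB9, chr6:32854034-32854062, minus strand: ccgagacaagTGACGAGGCagccccgccc
PSMD1, chr2:231056896-231056916, plus strand: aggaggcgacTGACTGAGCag
PSMB3, chr17:38752627-38752655, plus strand: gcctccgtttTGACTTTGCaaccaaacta
PSMD3, first match, chr17:39980760-39980788, plus strand: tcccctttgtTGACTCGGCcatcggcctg
PSMD3, second match, chr17:39980830-39980856, minus strand: ccgcacgaTGACGGAGCagctgcaaac
PSMD12, chr17:67366724-67366752, minus strand: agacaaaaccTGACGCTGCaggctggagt
PSMA4, chr15:78540650-78540678, plus strand: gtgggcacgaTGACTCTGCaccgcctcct
PSMD9, the member with the highest value, has a pair of matches too.
PSMD9, first match, chr12:121888678-121888706, plus strand: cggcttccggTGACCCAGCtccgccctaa
PSMD9, second match, chr12:121888631-121888659, minus strand: gcgcctgtggTGACCCGGCaggagtagcg
The 3 letters in the middle of the motif differed between the matches shown, and the element was found both in members with large decreases and in PSMD9. Matches not shown belong to PSME2 (-0.73), PSME1 (-0.58), PSMD5 (-0.49), PSMG1 (-0.35), PSMC5 (-0.19), PSMC4 (-0.14), PSME4 (-0.14) and PSMG2 (-0.08). Of the members called lower, PSMD2 (-1.08), PSMB2 (-0.89), PSMC2 (-0.77) and PSME3 (-0.77) had a window without a match. The match of PSMD1 and the second match of PSMD3 lie after the start.

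The 250 bases before the start are shown for PSMB3 (chr17:38752491-38752740, plus strand), PSMD3 (chr17:39980557-39980806, plus strand) and PSMB9 (chr6:32853942-32854191, plus strand), the 3 members with the largest decreases whose windows hold both elements. Capitals mark the antioxidant core and the CCAAT box on either strand.
PSMB3: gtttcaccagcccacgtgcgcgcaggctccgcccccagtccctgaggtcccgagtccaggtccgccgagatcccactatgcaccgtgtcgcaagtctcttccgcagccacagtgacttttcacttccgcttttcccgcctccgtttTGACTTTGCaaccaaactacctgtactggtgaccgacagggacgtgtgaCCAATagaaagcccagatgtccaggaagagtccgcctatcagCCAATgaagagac
PSMD3: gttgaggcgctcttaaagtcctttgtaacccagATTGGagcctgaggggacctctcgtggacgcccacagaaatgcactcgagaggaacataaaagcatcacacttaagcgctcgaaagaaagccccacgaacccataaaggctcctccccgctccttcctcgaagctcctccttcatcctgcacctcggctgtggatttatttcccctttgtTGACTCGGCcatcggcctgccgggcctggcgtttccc
PSMB9: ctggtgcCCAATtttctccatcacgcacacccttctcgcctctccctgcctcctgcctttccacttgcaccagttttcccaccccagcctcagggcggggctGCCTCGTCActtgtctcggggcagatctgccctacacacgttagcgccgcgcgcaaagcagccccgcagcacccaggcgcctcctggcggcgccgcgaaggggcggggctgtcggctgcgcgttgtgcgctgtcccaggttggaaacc
In PSMB3 both CCAAT boxes lie close to the start, while in PSMD3 and PSMB9 the single box lies near the far end of the stretch.

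Some members share their promoter region with a gene that starts in the opposite direction. Only the 40 members with a promoter window could be searched, which leaves out PSMA7, PSMB1, PSMB6, PSMB7, PSMD4 and PSMG3. In 9 cases such a neighbour with a value started within 1000 bases upstream of the member's start in RefSeq (GRCh38.p14), at 45 to 488 bases. ATG4A, which encodes an autophagy protease, was called higher at 0.69 beside PSMD10 at -0.11, and the other 8 neighbours were not called, numbers too small to set against the shares of 13.1% lower and 15.9% higher over all genes. The widest gap was that of PSMB9 (-2.73) and TAP1 (0.14), which start 488 bases apart, with the size of the PSMB9 decrease uncertain as said above. PSME2 (-0.73) stood beside RNF31 (0.01), a subunit of the linear ubiquitin ligase. PSMA2 (-0.70) stood beside the mitochondrial ribosomal gene MRPL32 (-0.37), and PSMD13 (-0.61) beside the mitochondrial deacetylase gene SIRT3 (-0.34), and in both pairs the values were negative. In 6 of the 9 pairs the neighbour had the higher value, and in PSMC5 (-0.19) with FTSJ3 (-0.57), PSMG2 (-0.08) with CEP76 (-0.18) and PSMD9 (0.27) with HPD (-0.15) it had the lower one. These pairs were looked up after the members' values were seen.

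**Figure D4:**
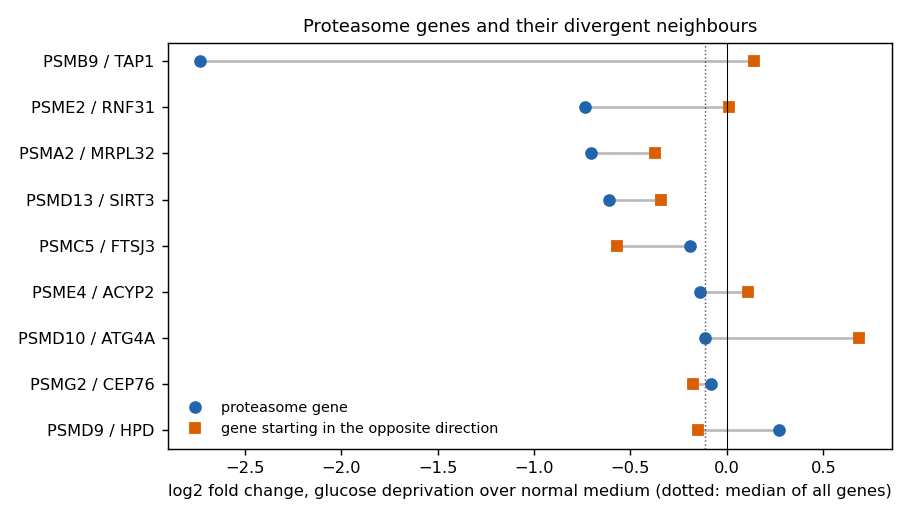
Log2 fold change (horizontal axis) of 9 proteasome genes (blue circles) and of the genes that start within 1000 bases in the opposite direction (orange squares); each line joins 1 pair. The line of PSMB9 and TAP1 is the longest, from -2.73 to 0.14.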

How the data were processed

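Total RNA of HCT116 cells was sequenced, with 1 library per condition. The study's methods name MGI2000 sequencing, Bowtie, the mouse build mm10 and RSEM. The submitters' processing notes instead list hg19, a human build, with Bowtie2 and BWA. Versions are not given in the sources used here. The authors deposited a log2 fold change per gene, a p-value of their Poisson test of 2 libraries, and an FDR, treated as a score because 501 values lie above 1. These columns are the authors' own comparison and the only values in the table used here, so they are quoted as the authors' values. The 933 genes with no value were left out.

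Medians, ranges and counts were computed with Python 3.11.15, numpy 2.4.6, pandas 2.3.3 and matplotlib 3.10.9, and call rules and motif search were tested on simulated data. No expression level, depth, interval or limit of detection could be given. The rule for named genes took all members and, of the related lists, the called genes of subunits and of transcriptional control with TAP1 and TAP2; the uncalled genes of these 2 lists are given too, and other names were chosen after their values were seen. Some genes of the related lists are not reported here. The members and lists were chosen with earlier results of these data known. All 46 gene IDs carry the same symbol in RefSeq, which names 52 pseudogenes after 21 of them. Promoter windows are from RefSeq (GRCh38.p14), a build other than the authors'. The planned protein identities were not computed, since no protein sequences were used here. Alternatives were other sizes, size alone, a p-value under 0.01, centring on the median, genes with an FDR of at most 0.001 only, and other groupings.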

Additional observations from a re-analysis of the deposited data

How the results depend on the processing

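The number of lower members was 12; it was 34 with a fold of 1.2 both ways, 5 beyond 1 and 6 after centring, which lost PSMA4, PSMA7, PSMC2, PSMD12, PSME3 and PSMG3. The number of higher members was 0, and 1 (PSMD9) by size alone or with a p-value under 0.01. No called member changed direction under these settings. Centring raised every gene by 0.12. The median of all members became -0.45, and those of the groups became -0.59 (alpha), -0.48 (beta), -0.33 (immunoproteasome), -0.35 (ATPase), -0.55 (non-ATPase) and -0.46 (activators), while that of the assembly factors turned to 0.0028. With members restricted to an FDR of at most 0.001, medians were -0.68 for all members, -2.73 for the immunoproteasome (PSMB9 alone), -0.53 for ATPases, -0.70 for non-ATPases, -0.73 for activators and -0.49 for assembly. Counting PSMD5, PSMD9 and PSMD10 with the non-ATPases gave -0.56 for that group and -0.22 for assembly. Leaving out PSMB9, a setting chosen after seeing the data, gave -0.55 for all members.

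In the related lists, a fold of 1.2 both ways gave 5 lower genes among other subunits and associated factors, 4 in substrate delivery, 2 in ubiquitin and E1 enzymes and 5 in antigen processing. Beyond 0.75 the higher genes were 1 among other subunits and associated factors, 4 in transcriptional control, 0 in ubiquitin and E1 enzymes and 2 in antigen processing. Beyond 1, other subunits and associated factors had 0 lower and 1 higher, transcriptional control 0 lower and 3 higher, ubiquitin and E1 enzymes 0 higher, and antigen processing 1 lower and 1 higher. Centring left 1 lower gene in transcriptional control and raised the higher genes to 8 there, to 4 among other subunits and associated factors and to 3 in ubiquitin and E1 enzymes. These counts follow from the sizes asked for. No paired analysis was possible because each condition has a single library. What depth limits could not be given, as the table holds no counts.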
